A study of Mus musculus with 6 samples.

Results

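Genes of blood and lymphatic endothelium were followed in primary and metastatic ovarian tumours of the mouse. The set named 38 genes, of which 36 had a probe set that the platform annotation gives to exactly 1 gene symbol, out of 30142 genes tested. Where a gene has several probe sets, the one with the highest mean across arrays stands for it. Rasip1 and Egfl7 lay on probe sets shared with other genes and are described separately. ID8-VEGF is a mouse ovarian surface epithelial tumour line made to produce vascular endothelial growth factor (VEGF), the main growth signal of blood vessels. The cells had been injected beneath the bursa that encloses the ovary, and late tumours of 3 mice, C1M3, C1M5 and C2M3, were profiled. From every mouse came 1 primary and 1 metastatic tumour. Thus 3 primary arrays were compared with 3 metastatic arrays, paired by mouse. All tumours of both groups arose from the VEGF-producing line, so no tumour without the VEGF construct is in the comparison. Strain, age, surgery and the site of each metastasis are not given in the labels, nor is the promoter that drives VEGF. The primary tumour assigned to C2M3 by its title and donor label carries C2M2 in its source name, and title and donor decided the pairing.

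Endothelial cells line blood and lymphatic vessels. They are held together by junction proteins such as VE-cadherin and claudin 5, carry sialomucins and receptors on the side facing the blood, and take their identity from transcription factors of the ETS and SOX families. Lymphatic endothelium is set apart by the factor PROX1. In a tumour these cells come from the host, not from the injected line, and in a bulk sample fewer endothelial cells cannot be told apart from less RNA per cell.

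Values are log2 intensities, so a difference of 1 is a 2-fold change, and 3 values in a row stand for C1M3, C1M5 and C2M3 in that order. The array medians over all genes lay between 4.90 and 5.15, and the number of arrays limits the precision. Some of the 11 ovarian surface and mesothelial markers read were high in every array. Upk3b, a uroplakin of mesothelium, lay between 14.48 and 16.06, and Krt18, an epithelial keratin, between 11.32 and 13.33. Wt1, a transcription factor of these cells, lay between 10.11 and 11.07. Others were lower or varied widely, such as Krt7 between 5.59 and 7.58, Muc16 between 6.35 and 7.54 and Upk1b between 8.22 and 14.57. Vegfa, the VEGF gene, lay between 12.92 and 14.99 in 5 arrays and at 10.06 in the metastatic tumour of C2M3. Whether its probe set reads the introduced VEGF is not given in the sources used here. The primary tumour of C1M3 was the lowest array in the means of several cell type gene lists, macrophage and leukocyte genes among them. Its mean over 10 macrophage genes was 6.43, against 8.15 to 9.01 elsewhere. Its mean over 8 genes shared by leukocytes was 5.61, against 6.78 to 7.41. Fibroblast genes gave 6.94 there against 7.93 to 9.62, pericyte genes 5.60 against 6.15 to 6.94, and smooth muscle genes 6.10 against 6.54 to 8.63. Adipocyte genes did not have their lowest mean in this array.

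The endothelial genes differed between the metastatic and primary tumour of each mouse, but not in a common direction. Most blood endothelial genes of the set were higher in the metastasis of C1M3 and lower in the metastases of C1M5 and C2M3. The median difference, metastatic minus primary, over the 36 genes was 0.35 in C1M3, -0.35 in C1M5 and -0.65 in C2M3, where the medians of all genes were -0.02, 0.00 and 0.05. Averaged over the mice the median was -0.15, against 0.02 for all genes, which is smaller than the spread of the within-mouse medians (SD 0.51, n = 3). No endothelial gene passed the test. With limma and the mouse as a block, 0 of 36 had an adjusted p under 0.05, as had 0% of all genes. At an unadjusted p under 0.05 there was 1 endothelial gene lower, Reln, where 1.97% of all genes were lower, and 0 higher, where 2.96% were. Without the block, 0 of 36 passed at either level.

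By the mean, 28 of the 36 genes were lower in metastatic tumours, against 43.9% of all genes, and 8 were higher, against 55.0%. This count depended most on mouse C2M3. Leaving out the primary tumour of C2M3 gave 14 and leaving out the mouse gave 15. Leaving out mouse C1M5 gave 23 and leaving out its metastatic tumour gave 22. Leaving out C1M3, by its primary tumour or whole, gave 31 in either case. Without mouse C1M3, 10925 of the 30142 genes tested were lower. The share of all genes is not given here for the other leave-outs. The median difference changed sign without C2M3, to 0.10 when its primary tumour was left out and 0.06 when the mouse was. It was -0.41 and -0.47 when the primary tumour of C1M3 or that mouse was left out. The other single leave-outs of an array or a mouse gave medians between -0.24 and -0.07.

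The pattern by mouse was common among these genes. It was chosen after the values were seen. In all, 21 of 36 genes were higher in the metastasis of C1M3 and lower in those of C1M5 and C2M3, where 8.35% of all genes were. With each array centred on its own median, 30 of 36 did so, but so did 41.9% of all genes. The array medians themselves differed by -0.12, 0.19 and 0.24 in C1M3, C1M5 and C2M3. A floor of 0.5 on each of the 3 differences is wider than these shifts of the medians. Above it lay 10 of 36 genes, namely Pecam1, Cdh5, Ptprb, Robo4, Emcn, Cd34, Plvap, Eng, Mmrn2 and Myct1, against 0.541% of all genes. With centring, 13 passed it, against 1.07%. The primary tumour of C2M3 was the highest array for 25 of 36 genes, where it was the highest for 10.4% of all genes. The primary tumour of C1M3 was the lowest for 15 of 36, against 16.4%, and the metastatic tumour of C1M5 for 11 of 36, against 9.86%.

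**Figure D1:**
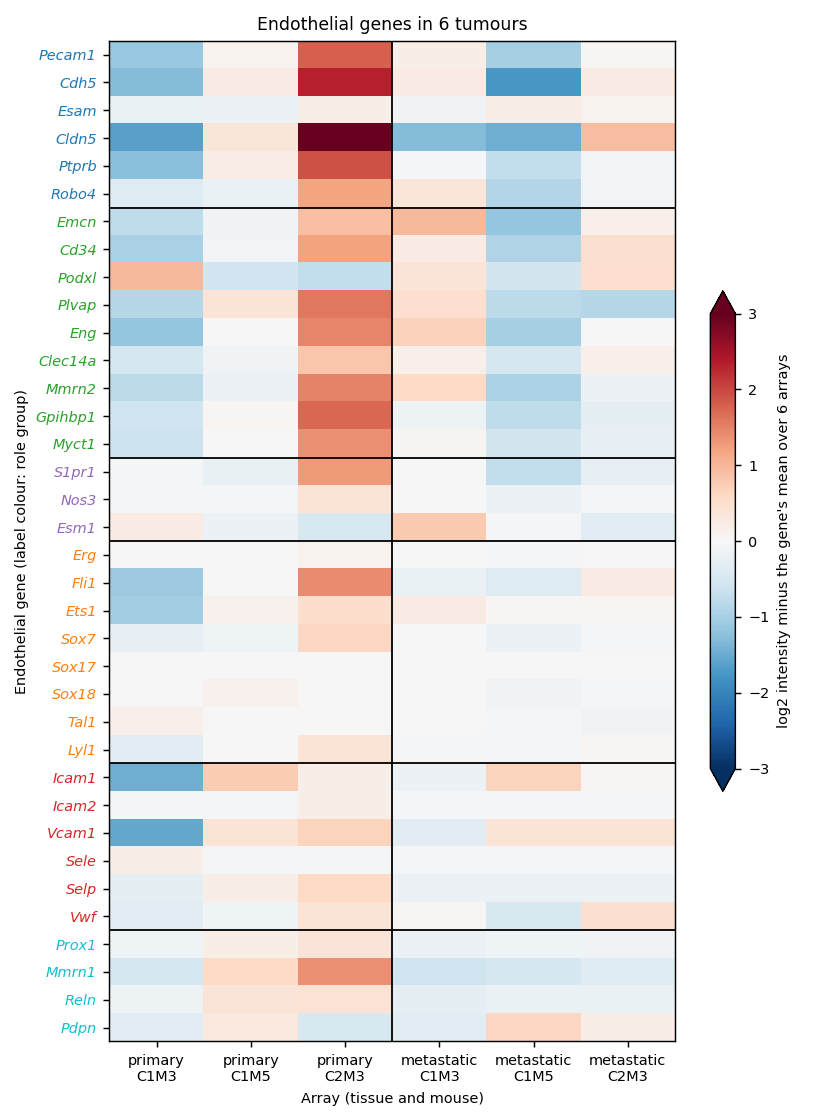
Heat map of the 36 endothelial genes (rows, label colours and black lines mark the role groups) in the 6 tumour arrays (columns), coloured by log2 intensity minus the gene's mean over the 6 arrays; colours saturate at 3. Red is dense in the primary tumour of C2M3, the highest array for 25 of 36 genes, and blue in the primary tumour of C1M3 and the metastatic tumour of C1M5.

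Of the 36 genes, 22 ranged over at least 1 log2 unit across the arrays, against 21.1% of all genes. The widest range, 4.73, was that of the junction gene Cldn5. Cdh5, which encodes VE-cadherin of the adherens junction, read 7.30, 8.84 and 10.94 in primary and 8.86, 6.85 and 8.84 in metastatic tumours. The primary tumour of C2M3 was highest and the metastatic tumour of C1M5 lowest, and the groups overlapped. The mean difference was -0.85 (SE 0.98, limma adjusted p = 0.855), made up of 1.56, -2.00 and -2.10 within the mice. Without the primary tumour of C2M3 and with no block it was 0.11. Cldn5, the tight junction protein claudin 5, gave 5.83, 7.82 and 10.56 in primary and 6.16, 6.0 and 8.38 in metastatic tumours. Both tumours of C2M3 and the primary tumour of C1M5 stood above the others. Its difference of -1.22 (SE 0.63, adjusted p = 0.841) was the only one of the 36 to reach 2-fold, where 0.567% of all genes were 2-fold lower and 1.61% 2-fold higher. Without the primary tumour of C2M3 and with no block it was 0.02.

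Pecam1, which encodes the adhesion molecule CD31 of endothelium, platelets and leukocytes, had 6.58, 7.82 and 9.50 in primary and 7.90, 6.72 and 7.74 in metastatic tumours. It ran in the same order as Cdh5 among the primary tumours, with a difference of -0.52 (SE 0.76, adjusted p = 0.871). Ptprb encodes VE-PTP, a phosphatase that acts on VE-cadherin and the Tie2 receptor. It gave 5.59, 7.06 and 8.75 in primary and 6.80, 6.09 and 6.76 in metastatic tumours. Its difference was -0.58 (SE 0.77). Robo4, an endothelial guidance receptor that stabilises vessels, ranged from 5.67 in the metastasis of C1M5 to 7.73 in the primary tumour of C2M3. Esam, another tight junction adhesion molecule, was the exception of the group: it stayed between 8.29 and 8.69 in all 6 arrays.

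Among the surface glycoproteins and receptors, 8 of 9 followed the pattern by mouse, against 8.35% of all genes. Eng, which encodes endoglin, a co-receptor for TGF-beta family ligands, had 6.02, 7.18 and 8.66 in primary and 7.87, 6.19 and 7.18 in metastatic tumours. The metastasis of C1M3 stood above its primary tumour and the other metastases below theirs, with differences of 1.85, -0.99 and -1.48 and a mean of -0.21 (SE 0.84, adjusted p = 0.968). For Emcn, the endothelial sialomucin endomucin, the values were 6.23, 6.89 and 7.91 in primary and 7.98, 5.84 and 7.15 in metastatic tumours. Its within-mouse differences of 1.75, -1.05 and -0.76 left a mean of -0.02 (SE 0.72, adjusted p = 1). Plvap forms the diaphragms of capillary fenestrae. It gave 5.11, 6.39 and 7.55 in primary and 6.47, 5.18 and 5.11 in metastatic tumours, with the widest difference of this group within C2M3, at -2.45. The sialomucin gene Cd34, which blood progenitors also express, had differences of 1.24, -0.82 and -0.73 in C1M3, C1M5 and C2M3.

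Mmrn2, a protein of the vessel matrix, and Clec14a, the endothelial lectin that binds it, differed in the same directions within each mouse. Differences were 1.42, -0.78 and -1.65 for Mmrn2 and 0.69, -0.40 and -0.67 for Clec14a. Gpihbp1, which carries lipoprotein lipase to the capillary surface, had 6.08, 6.74 and 8.41 in primary and 6.53, 5.93 and 6.39 in metastatic tumours. Its high value was that of the primary tumour of C2M3, and the difference was -0.79 (SE 0.58, adjusted p = 0.841). Myct1, an endothelial membrane protein gene, had its lowest value, 4.39, in the primary tumour of C1M3 and its highest, 6.41, in that of C2M3. Podxl was the exception. It encodes podocalyxin, a sialomucin of endothelium that mesothelial cells and podocytes also make, and had 13.85, 12.31 and 12.14 in primary and 13.26, 12.32 and 13.39 in metastatic tumours. Its highest array was the primary tumour of C1M3, where 15 endothelial genes had their lowest value. Its differences of -0.60, 0.01 and 1.24 averaged 0.22 (SE 0.44, adjusted p = 0.91).

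The mean differences of the blood endothelial genes depended on which mouse was left out. Without both tumours of C1M3, Cdh5 stood at -2.05, Cldn5 at -1.99, Plvap at -1.82, Ptprb at -1.48, Pecam1 at -1.43 and Gpihbp1 at -1.41. In the same comparison Eng stood at -1.23, Mmrn2 at -1.22, Myct1 at -1.07, Robo4 at -0.98, Emcn at -0.90, Cd34 at -0.77 and Clec14a at -0.54, and Podxl at 0.63. Without both tumours of C2M3 most of them changed sign. Eng then stood at 0.43, Emcn at 0.35, Mmrn2 at 0.32, Cd34 at 0.21, Clec14a at 0.14, Ptprb at 0.12, Pecam1 at 0.11, Myct1 at 0.10, Plvap at 0.080 and Robo4 at 0.032. Cdh5 stood at -0.22, Cldn5 at -0.74, Gpihbp1 at -0.18 and Podxl at -0.30. None passed limma's test after adjustment in either comparison.

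**Figure D2:**
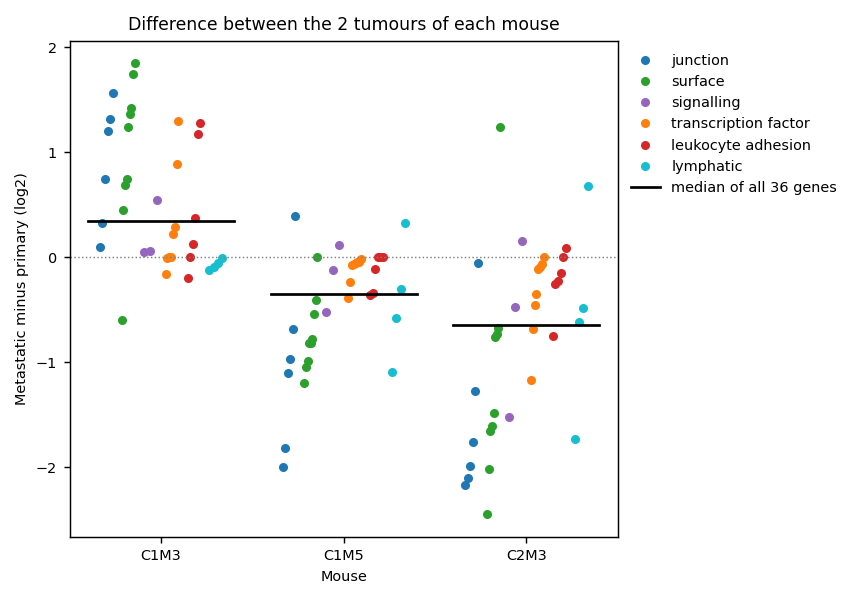
Metastatic minus primary log2 intensity (vertical axis) of each of the 36 endothelial genes (points, coloured by role group) in each mouse (horizontal axis), with black lines at the medians of 0.35, -0.35 and -0.65. Junction and surface genes lie mostly above 0 in C1M3 and below 0 in C1M5 and C2M3; the green point at 1.24 in C2M3 is Podxl.

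Promoter sequences are printed for 3 genes that followed the pattern by mouse, Robo4, Emcn and Eng, and for Mmrn1, which did not, to show where the core letters of endothelial factors lie. The RefSeq promoter table of GRCm38.p6 held 20 of the 38 genes. Each sequence is the 250 bases before the annotated start, written 5′ to 3′ on the gene's strand. Capitals mark AGGAAG, a core read by ETS factors, and ACAATG, a core read by SOX factors, on either strand. AGATAA, read by GATA factors, was searched as well.
Robo4 (chr9:37401722-37401971, plus strand): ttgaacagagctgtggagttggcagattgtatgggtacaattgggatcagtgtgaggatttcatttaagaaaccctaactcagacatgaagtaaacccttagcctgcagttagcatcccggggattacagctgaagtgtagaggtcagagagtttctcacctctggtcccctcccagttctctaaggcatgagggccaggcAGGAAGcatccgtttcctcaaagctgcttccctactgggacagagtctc
Emcn (chr3:137340828-137341077, plus strand): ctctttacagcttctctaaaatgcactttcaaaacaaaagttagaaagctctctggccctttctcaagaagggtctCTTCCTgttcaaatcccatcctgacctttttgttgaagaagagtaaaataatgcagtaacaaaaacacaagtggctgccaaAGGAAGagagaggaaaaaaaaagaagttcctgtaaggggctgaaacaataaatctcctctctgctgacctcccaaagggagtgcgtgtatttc
Eng (chr2:32646345-32646594, plus strand): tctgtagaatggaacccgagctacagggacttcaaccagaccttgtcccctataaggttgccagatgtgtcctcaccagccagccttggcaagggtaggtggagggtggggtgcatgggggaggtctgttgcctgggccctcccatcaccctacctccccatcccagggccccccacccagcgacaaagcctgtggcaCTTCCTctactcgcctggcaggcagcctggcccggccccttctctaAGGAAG
Mmrn1 (chr6:60944067-60944316, plus strand): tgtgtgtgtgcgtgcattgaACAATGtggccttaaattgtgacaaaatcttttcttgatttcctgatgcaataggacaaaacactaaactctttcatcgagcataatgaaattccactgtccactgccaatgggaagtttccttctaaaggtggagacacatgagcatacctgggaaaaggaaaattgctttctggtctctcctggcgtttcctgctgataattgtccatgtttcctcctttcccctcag
The ETS letters occurred once in the Robo4 window, in 2 places each in those of Emcn and Eng, and not in that of Mmrn1, which held the SOX letters. No sequence held letters of more than 1 of the 3 motifs, so no motifs overlapped. Over the same 250 bases the ETS letters were found in 8 of the 20 endothelial promoters (40%) and in 29.2% of the 27025 promoters in the table. Cldn5, Clec14a, Myct1, Lyl1 and Icam1 followed the pattern by mouse without these letters, and Sele held them without following it. The printed sequences are examples and do not link the letters to the pattern. The GATA letters were found in 2 of 20 (10%) against 10.3%, and the SOX letters in 1 of 20 (5%) against 11.0%. A match is a description of the sequence, and binding was not measured here.

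Of the signalling genes, S1pr1, the receptor for the lipid sphingosine-1-phosphate, had 6.24, 6.09 and 7.57 in primary and 6.31, 5.57 and 6.05 in metastatic tumours. The primary tumour of C2M3 stood above all other arrays, and the difference was -0.66 (SE 0.38, adjusted p = 0.841), or -1.02 without mouse C1M3 and -0.23 without C2M3. Nos3, the endothelial nitric oxide synthase, varied little, between 4.89 and 5.49, with its highest value in the same tumour. Esm1 encodes endocan, a secreted proteoglycan that VEGF induces in sprouting tip cells. It had 5.93, 5.51 and 5.19 in primary and 6.47, 5.63 and 5.35 in metastatic tumours. The order of mice was the reverse of that of Cdh5 in the primary tumours, with C1M3 highest in both tissues. Esm1 was the only one of the 36 that was higher in the metastasis of every mouse, where 11.1% of all genes were, by 0.55, 0.12 and 0.16, a mean of 0.27 (SE 0.12, adjusted p = 0.841). Centred on array medians, the differences in C1M5 and C2M3 were -0.07 and -0.09. Without the metastatic tumour of C1M3 and with no block the mean was -0.06.

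**Figure D3:**
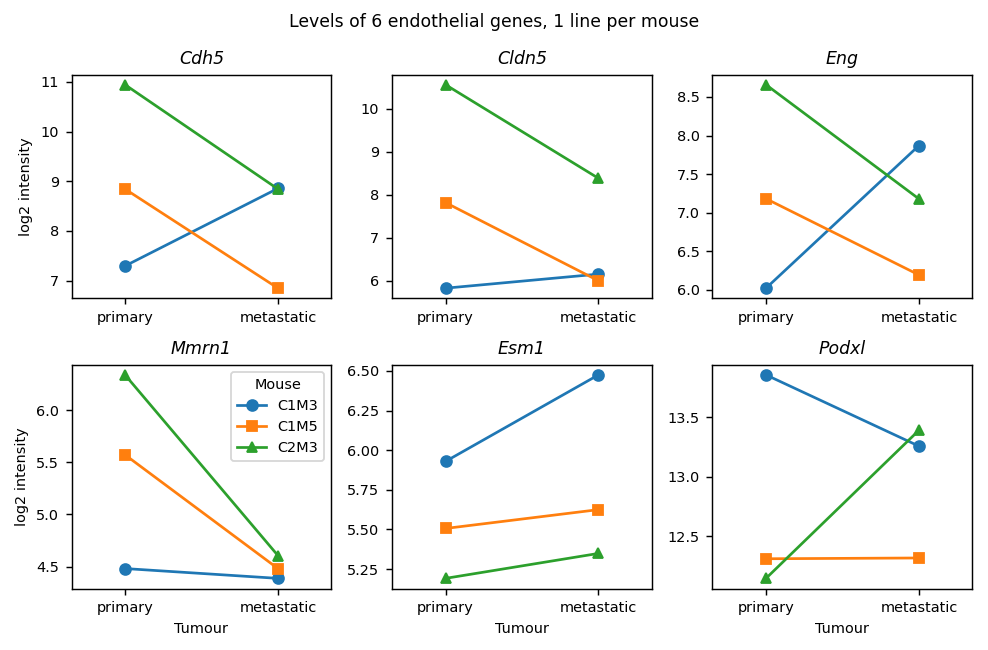
Log2 intensity of 6 endothelial genes in the primary and metastatic tumour of each mouse (1 line and marker shape per mouse; vertical axes differ between panels and do not start at 0). The lines of Cdh5 and Eng cross, with C1M3 going up and the other mice down, those of Mmrn1 end between 4.39 and 4.61, those of Esm1 stay in 1 order of mice, and Podxl is highest in the primary tumour of C1M3.

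The transcription factors split into those that varied and those that stayed near 1 value. Fli1, an ETS factor of endothelium and blood cells, had 5.82, 6.90 and 8.33 in primary and 6.71, 6.51 and 7.16 in metastatic tumours. It followed the pattern by mouse with 0.89, -0.38 and -1.17, and its mean of -0.22 was -0.78 without mouse C1M3 and 0.25 without C2M3. Ets1, an ETS factor shared with lymphocytes, had its lowest value of 5.43 in the primary tumour of C1M3 and lay between 6.54 and 7.0 elsewhere. Its mean difference of 0.26 (SE 0.43) was -0.26 without the tumours of C1M3. Sox7, of the SOX F group that directs vessel identity, reached 4.94 in the primary tumour of C2M3 against 4.08 to 4.30 elsewhere. Lyl1, a helix-loop-helix factor of blood and endothelium, lay between 4.35 and 5.10. Its relative Tal1 stayed between 4.39 and 4.64. Erg, the ETS factor that maintains endothelial identity, stayed between 5.31 and 5.47, Sox17 between 4.25 and 4.27, and Sox18 between 3.30 and 3.54. The Erg, Sox17 and Sox18 probe sets thus varied by at most 0.24 across arrays in which Cdh5 varied by 4.10. Tal1 and Sox18 were lower in the metastasis of every mouse, by -0.05 to -0.16 and by -0.00 to -0.24, and neither passed the test (adjusted p = 0.841 for both). Centred on array medians, Sox18 differed by 0.11 in C1M3, while Tal1 stayed lower in every mouse.

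Genes of leukocyte adhesion did not follow a single course. Icam1, an integrin ligand induced by inflammatory signals, had 5.52, 7.74 and 7.15 in primary and 6.80, 7.63 and 7.0 in metastatic tumours. Vcam1, a second such ligand that fibroblasts and mesothelium also express, had 5.89, 7.82 and 8.07 in primary and 7.07, 7.82 and 7.82 in metastatic tumours. In both genes the primary tumour of C1M3 was the lowest array, by more than 1 log2 unit, and the other mice differed little between tissues. Their mean differences were 0.34 (SE 0.38, adjusted p = 0.853) and 0.31 (SE 0.36, adjusted p = 0.856), and were -0.13 and -0.13 without the tumours of C1M3. Selp, the P-selectin of platelets and venules, had 4.5, 4.98 and 5.37 in primary tumours and 4.62 in each metastatic tumour. Von Willebrand factor, Vwf, which endothelium stores with P-selectin, lay between 5.33 and 6.29 with no common direction. Icam2, a constitutive ligand, read 4.81 in 5 arrays and 5.03 in the primary tumour of C2M3. Sele, the cytokine-induced E-selectin, read 3.81 in 5 arrays and 4.01 in the primary tumour of C1M3. At least 2 arrays shared 1 value in 15 of the 36 genes and in 51.4% of all genes. At least 3 arrays did so in 8 of the 36, and the share of all genes for this is not given here.

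Of the 4 lymphatic genes, Mmrn1, Reln and Prox1 had their higher values in the primary tumours of C1M5 and C2M3. Mmrn1, which encodes multimerin 1 of lymphatic endothelium and platelets, had 4.48, 5.57 and 6.34 in primary and 4.39, 4.48 and 4.61 in metastatic tumours. The primary tumours of C1M5 and C2M3 stood above all other arrays. The difference was -0.97 (SE 0.39, adjusted p = 0.841), or -1.41 without mouse C1M3 and -0.59 without C2M3. Reln, which encodes reelin, had 4.12, 4.67 and 4.71 in primary and 4.0, 4.09 and 4.09 in metastatic tumours. Its groups did not overlap, as for 2 of the 36 genes, where 2.84% of all genes were lower without overlap, Sox18 being the other. No gene of the 36 was higher without overlap, where 4.79% of all genes were. The difference was -0.44 (SE 0.14, unadjusted p = 0.0477, adjusted p = 0.841). Prox1, the factor that specifies lymphatic endothelium, had 4.01, 4.32 and 4.52 in primary and 3.95, 4.01 and 4.03 in metastatic tumours. Its difference was -0.28 (SE 0.11, adjusted p = 0.841).

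These 3 genes were lower in the metastasis of every mouse, as were Tal1 and Sox18, 5 of 36 in all, against 8.64% of all genes. Within C1M3 the differences were small, -0.09 for Mmrn1, -0.13 for Reln and -0.06 for Prox1, and centred on array medians they were 0.02, -0.01 and 0.06. The statement of 1 direction in all mice therefore holds for Reln alone of the 3 under both scalings. The levels were low, with 25%, 30.6% and 48.9% of all genes at a lower mean than Prox1, Reln and Mmrn1. Some values repeated. Reln read 4.09 in the metastases of both C1M5 and C2M3. The primary tumour of C1M3 and the metastasis of C1M5 shared 1 value in Prox1, 4.01, and in Mmrn1, 4.48. In C1M5 and C2M3 all 3 stayed lower under centring. Pdpn, podoplanin of lymphatic endothelium, which mesothelial cells and fibroblasts also carry, ran differently. It lay between 13.52 and 14.62, with its highest values in the metastatic and primary tumours of C1M5, and differed by 0.33 (SE 0.17, adjusted p = 0.841). The mean of 11 mesothelial and ovarian surface genes was also highest in the tumours of C1M5, at 12.08 and 12.25, against 10.36 to 10.99 in the other arrays. The part of mesothelial or tumour cells in the Pdpn and Podxl values was not tested.

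Other lymphatic genes did not run with Prox1, Mmrn1 and Reln throughout. Of 6 measured, 4 had a lower mean in metastatic tumours, against 43.9% of all genes, and 0 passed. Their median difference in C1M3 was 0.38, beside 0.39 for the other blood endothelial genes and -0.08 for the 4 lymphatic genes above. Lyve1, a hyaluronan receptor of lymphatic endothelium and some macrophages, had 4.51, 6.28 and 7.02 in primary and 4.57, 5.19 and 5.07 in metastatic tumours, which is the same order of arrays as Mmrn1 among the primary tumours. Its difference was -0.99 (SE 0.48). Flt4, the VEGF-C receptor gene, followed the pattern by mouse, with 1.62, -0.47 and -1.32. Sema3d, a guidance ligand, was higher by 0.76 (SE 0.16) and Nrp2, a VEGF-C co-receptor, by 0.50 (SE 0.39).

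Further endothelial genes were read from lists, with no test of any list. Of 27 other blood endothelial genes, 15 had a lower and 12 a higher mean, the median was -0.05, and 12 followed the pattern by mouse. Over all genes, 43.9% had a lower and 55.0% a higher mean, and 8.35% followed the pattern, or 41.9% with arrays centred. The counts of the lists below stand beside these same shares. The VEGF receptor gene Kdr had 7.16, 7.72 and 9.27 in primary and 8.70, 6.08 and 7.72 in metastatic tumours, and Flt1, the second receptor, 6.36, 9.17 and 8.44 against 8.37, 8.90 and 6.65. Kdr ran by mouse as Cdh5 did. The widest mean differences in the list were those of the adhesion receptor gene Adgrf5 at -0.78 (SE 0.73), the angiopoietin receptor gene Tek at -0.72 (SE 0.46), the lectin gene Cd93 at 0.69 (SE 0.55) and Kdr at -0.55 (SE 0.85). Of 9 arterial genes, 4 were lower and 5 higher by the mean. Efnb2, an arterial ephrin, differed by -0.81 (SE 0.29), Hey1 by 0.35 (SE 0.39), Unc5b by -0.25 (SE 0.10) and Sema3g by 0.24 (SE 0.20). Of 6 venous genes, which include Selp and Vwf, 5 were lower. The ephrin receptor gene Ephb4 differed by -0.37 (SE 0.07), Nr2f2, which specifies veins, by -0.50 (SE 0.21), Aplnr by -0.44 (SE 0.92) and Selp by -0.33 (SE 0.21). No gene of these lists passed over all genes.

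Capillary genes of fat were all lower by the mean, 8 of 8, against 43.9% of all genes, with a median of -1.02. The medians within C1M3, C1M5 and C2M3 were -0.003, -0.71 and -2.65. The part of fat cells in these values was not tested. Cd36 and Fabp4, which fat cells also express, differed by -3.25 (SE 2.06) and -3.50 (SE 1.88), the aquaporin gene Aqp7 by -1.48 (SE 0.87) and Timp4, an inhibitor of matrix proteases, by -1.03 (SE 0.64). Cd300lg, a capillary receptor gene, had 5.04, 6.17 and 7.61 in primary and 5.87, 5.05 and 4.89 in metastatic tumours. Tip cell genes were mixed, 8 lower and 3 higher of 11. Cxcr4, a chemokine receptor that leukocytes share, was higher by 1.24 (SE 0.23), Apln, the apelin gene, by 1.07 (SE 0.69), while Adm, the adrenomedullin gene, differed by -2.50 (SE 0.69) and Nid1, a basement membrane gene, by -0.79 (SE 1.30). Of 4 high endothelial venule genes 2 were lower. Chst4 differed by -0.80 (SE 0.20), Fut7 by 0.34 (SE 0.08), Glycam1 by 0.21 (SE 0.17) and Madcam1 by -0.05 (SE 0.06).

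Most other lists ran with the endothelial genes among the primary tumours, but several did not between the tissues of each mouse. The mean of the 36 endothelial genes was 5.81, 6.38 and 7.10 in primary and 6.36, 5.92 and 6.33 in metastatic tumours, or 6.43 ± 0.65 (SD, n = 3) against 6.20 ± 0.25. Adipocyte genes, of which 8 of 8 had a lower mean in metastatic tumours, had list means of 5.63, 8.92 and 11.06 in primary and 5.39 to 5.78 in metastatic tumours. Adipoq, the adiponectin gene, ran from 5.80 to 13.21 in primary tumours and stayed between 5.75 and 6.09 in metastatic tumours. Smooth muscle genes, 6 of 6 lower, had list means of 6.10, 7.74 and 8.63 in primary and 6.54 to 6.82 in metastatic tumours. The primary tumours stood in 1 order, C2M3 above C1M5 above C1M3, in the endothelial mean and in the means of 13 of the 16 other lists. The lists without this order were the arterial, the other lymphatic, and the mesothelial and ovarian surface genes. Of single genes, 24 of the 36 endothelial genes had it, against 10.6% of all genes. The part of these cells in the endothelial result was not tested.

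Pericyte genes mark the cells that wrap capillaries. The pattern by mouse was followed by 7 of 8 of them, against 8.35% of all genes. It was also followed by 7 of 8 adipocyte genes, whose differences in C1M3 were at most 0.34. The pericyte list mean was 5.60, 6.47 and 6.94 in primary and 6.66, 6.15 and 6.42 in metastatic tumours, with 3 genes lower and 5 higher by the mean. Pdgfrb, the receptor for platelet-derived growth factor B, gave differences of 3.20, -1.23 and -1.15, and Rgs5, a regulator of G-protein signalling, of 1.77, -0.50 and -0.27. Rgs5 had the widest mean difference, 0.33 (SE 0.59), and Pdgfrb the next, 0.27 (SE 1.19). The next widest were Abcc9 at a mean of -0.25 (SE 0.49) and Higd1b at 0.22 (SE 0.37). Macrophage genes were 9 of 10 higher by the mean, against 55.0% of all genes. Their list means in C1M5 and C2M3 were nearly level between tissues, at 8.46 and 9.01 in primary and 8.40 and 9.0 in metastatic tumours. Pan-leukocyte genes were 7 of 8 higher, with list means of 5.61, 6.86 and 7.28 in primary and 6.78, 6.84 and 7.41 in metastatic tumours. T cell genes were 6 of 7 higher, with 4.90, 5.03 and 5.49 in primary and 5.23, 5.29 and 5.60 in metastatic tumours. Without mouse C1M3, 6 of 10 macrophage, 6 of 8 pan-leukocyte and 6 of 7 T cell genes were higher. Over all genes, 18235 of 30142 were higher in that comparison. Platelet and megakaryocyte genes, which bear on Selp, Vwf, Mmrn1 and Pecam1, were 3 lower and 4 higher of 7, with list means of 4.96, 5.34 and 5.95 in primary and 5.29, 5.57 and 5.30 in metastatic tumours. Ppbp, a platelet chemokine gene, read 8.29 in the primary tumour of C2M3 and 5.54 to 6.22 elsewhere. Pf4, which some macrophages also express, was lowest in the primary tumour of C1M3, at 6.17, and highest in the metastasis of C1M5, at 9.74. The range of Itga2b, a platelet integrin gene, was 5.19 to 5.34. Fibroblast genes were 5 lower and 3 higher of 8, with list means of 6.94, 8.64 and 9.62 in primary and 8.15, 7.93 and 9.11 in metastatic tumours. Without mouse C1M3, 7 of 8 fibroblast, 7 of 8 pericyte and 21 of 27 other blood endothelial genes were lower by the mean. Over all genes, 10925 of 30142 were lower there. The part of each of these cells in the endothelial values was not tested.

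**Figure D4:**
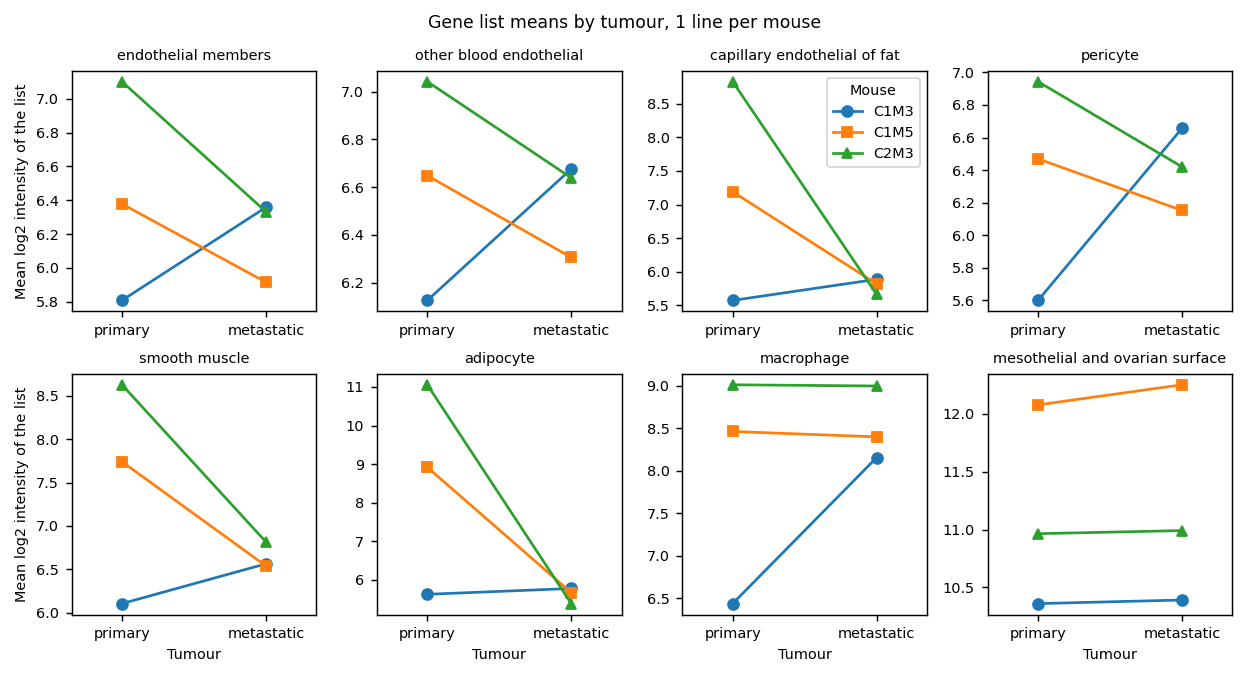
Mean log2 intensity of 8 gene lists (panels) in the primary and metastatic tumour of each mouse (1 line and marker shape per mouse; vertical axes differ and do not start at 0). Endothelial and pericyte lines cross, with C1M3 going up and the others down, adipocyte lines meet between 5.39 and 5.78 in metastatic tumours, and the macrophage line goes up in C1M3 alone, from 6.43 to 8.15.

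Egfl7 and Rasip1 had no probe set of their own. The probe set shared by Egfl7, a vessel-secreted matrix factor, and the microRNA gene Mir126 in its intron, had 5.07, 5.42 and 6.08 in primary and 5.57, 5.22 and 5.42 in metastatic tumours. Within mice it differed by 0.50, -0.20 and -0.66, the direction of 21 of the 36 endothelial genes, but its signal cannot be assigned to either gene. The probe set shared by Rasip1, a regulator of vessel lumen formation, and Izumo1, a sperm gene, stayed between 4.34 and 4.62.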

How the data were processed

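RNA of 6 mouse tumours, 1 array each, was measured on Affymetrix whole-transcriptome arrays. The deposited values are log2 intensities per probe set, made by the authors with RMA and Transcriptome Analysis Console, per the submitters' processing notes. RMA corrects background, quantile-normalizes and summarises probes, which can give several arrays 1 value. Of 65956 probe sets that are not controls, 30604 had 1 gene symbol in the platform annotation, giving 30142 genes. Its genome build is not given in the sources used here. Symbols of 827 probe sets were updated through Entrez Gene.

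limma 3.58.1 in R 4.3.3 was fitted to all genes with tissue and mouse (a block) as terms, with two-sided tests, p-values adjusted over all genes by Benjamini-Hochberg and a threshold of 0.05. The pairing follows from the donor label. As a check, the r over all genes between both tumours of a mouse, each minus its group mean, was -0.05, 0.35 and 0.07 in C1M3, C1M5 and C2M3. Alternatives left out the block, arrays or mice, centred the arrays, filtered dim genes, averaged probe sets, weighted arrays or added a covariate. The endothelial genes and lists were chosen with earlier results of these data known. Of each other list up to 4 genes with the widest difference were to be named, and Vegfa, Kdr and Flt1 in every case. This was not kept for the adipocyte, smooth muscle, platelet, pan-leukocyte, T cell, macrophage, fibroblast and mesothelial lists. It was kept in part for the other lymphatic list, where Foxc2 is not named. Other genes named are examples chosen after their values were seen.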

Additional observations from a re-analysis of the deposited data

How the results depend on the processing

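No gene over all genes and no endothelial gene passed limma's test after adjustment in any of the 15 alternatives. At an unadjusted p under 0.05 they held 0 to 11 of the endothelial genes. There were 11 of 36 when mouse C1M3 was left out, against 14.8% of all genes in that fit, 4 without its primary tumour, against 9.11%, 7 with the covariate named below, against 11.3%, 6 with array weights, against 17.5%, and 0 or 1 in the others, against 2.25% to 6.64%. With no replicate block, adjusted p-values of the endothelial genes were 0.8425 or above, and the block changed no call. The median difference lay between -0.47 and 0.10 over the leave-outs and between -0.35 and -0.04 over the other alternatives. The count of genes with a lower mean was 16 of the 24 tested among genes above the median level, and 14 to 31 of 36 over the leave-outs. With arrays centred on their medians, 3 of 36 genes were lower in all mice, against 19.6% of all genes, in place of 5, against 8.64%.

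Of the 36 genes, 12 kept their sign throughout, 3 (Sox17, Icam2 and Sele) came to 0 in at least 1 alternative, and 21 changed sign. Of the 21, the lowest leave-out value came without C1M3 or its primary tumour in 18, and the highest without C2M3 or its primary tumour in 16. With centring, Vwf was -0.067. With array weights, Ets1 was -0.035, Icam1 -0.0064 and Vwf -0.20. With the level of olfactory and vomeronasal receptor genes as a covariate, Emcn was 0.41, Cd34 0.23, Podxl -0.039, Eng 0.33, Clec14a 0.086, Mmrn2 0.14, Fli1 0.090 and Lyl1 0.050. With this covariate other genes moved without a change of sign. The junction genes Pecam1, Cdh5, Ptprb and Robo4 stood at -0.030, -0.24, -0.092 and -0.090, Cldn5 at -0.82 and Esam at 0.15. Icam1 and Vcam1 rose to 0.58 and 0.53. In that fit 22 of 36 genes had a lower mean, and the share of all genes is not given here. The cause of these changes was not tested. Over the leave-outs the range was -0.26 to 0.62 for Ets1, -0.30 to 0.81 for Icam1, -0.38 to 0.71 for Vcam1, -0.20 to 0.29 for Vwf, -0.90 to 0.55 for Emcn, -0.77 to 0.48 for Cd34, -1.23 to 0.48 for Eng and -0.54 to 0.25 for Clec14a. It was -1.43 to 0.25 for Pecam1, -1.48 to 0.22 for Ptprb, -0.98 to 0.087 for Robo4, -0.30 to 0.76 for Podxl, -1.82 to 0.080 for Plvap, -1.22 to 0.32 for Mmrn2 and -1.07 to 0.10 for Myct1. It was -0.82 to 0.44 for Fli1, -0.37 to 0.10 for Sox7, -0.23 to 0.14 for Lyl1, -2.05 to 0.11 for Cdh5, -2.34 to 0.024 for Cldn5 and -0.055 to 0.51 for Esm1. Where 1 array was left out, the fit had no block. Sox18 and Sele were the dimmest, with 1.93% and 12.1% of all genes at a lower mean.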
